A study of Mus musculus with 3 samples.

Results

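Transcripts of 5 chemokine genes, Ccl3, Ccl4, Ccl5, Cxcl2 and Xcl1, were counted in regulatory T cells (Tregs) of mouse epidermis, dermis and lymph node. The genes were taken by symbol from the gene table of each library, and all 5 were present among 27998 genes. The values were UMIs, unique molecular identifiers that each stand for 1 captured transcript, counted per gene and cell barcode. The mice carried the Foxp3-EGFP reporter allele of the strain C.Cg-Foxp3tm2Tch/J in all 3 groups, and each tissue gave 1 library. Skin layers were parted with thermolysin, the dermis was further digested with collagenase and lymph nodes were mashed. Cells positive for GFP, CD3, CD4 and CD45 were sorted from each tissue, so the fluorescent reporter and not the Foxp3 transcript defined the Tregs. The series title calls the mice adult, with number, sex and age in weeks not given in the sources used here.

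Chemokines are small secreted proteins that draw leukocytes carrying the matching receptors along a gradient. Ccl3 and Ccl5 bind the receptor Ccr1, and Ccl5 also binds Ccr3. Cxcl2 draws neutrophils through Cxcr2, and Xcl1 draws cross-presenting dendritic cells through Xcr1. T cells secrete Ccl3, Ccl4 and Xcl1 after stimulation of the T cell receptor, whereas Ccl5 is typical of effector and memory T cells, and Cxcl2 is best known from myeloid and stromal cells. Ccl3, Ccl4 and Ccl5 belong to the CC chemokine cluster on mouse chromosome 11.

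Cells were kept at 500 or more UMIs with mitochondrial transcripts at 10% or less. Epidermis kept 297 of 360 barcodes with 2205131 UMIs, dermis 875 of 1077 with 4630059 UMIs, and lymph node 9400 of 9419 with 32906839 UMIs. Median depth per cell was 6671 UMIs in epidermis, 4726 in dermis and 3022 in the lymph node. At these totals 1 UMI was worth 0.453 CPM (counts per 1000000 UMIs of its library) in epidermis, 0.216 in dermis and 0.0304 in the lymph node. The skin libraries were made with v3 chemistry of the 10x Genomics 3′ kit and the lymph node library with v2, so kit and tissue cannot be told apart in the comparisons with lymph node. A T cell gate, at least 2 UMIs of Cd3d, Cd3e, Cd3g and Cd4 with at most 3% of UMIs on markers of other cell types, was passed by 271 epidermal, 838 dermal and 9300 lymph node cells. A Foxp3 UMI was found in 39.7% of epidermal and 47.0% of dermal cells, with 7.17% for the lymph node, where Foxp3 stood at 21.8 CPM. Macrophage and monocyte markers summed to 20.0 CPM in epidermis, 3.67 CPM in dermis and 11.2 CPM in the lymph node, and keratinocyte markers to 19.5 CPM in epidermis, 71.5 CPM in dermis and 12.3 CPM in the lymph node. With 1 library per tissue no test between tissues was possible, and every interval below is a 95% interval that covers counting error only.

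The epidermal and dermal libraries shared 43 barcodes, of which 41 passed the filter in both. In 30 of them the dermal copy held between 7.09% and 8.60% of the UMIs of the epidermal copy, and in 9 the epidermal copy held between 4.22% and 4.96% of those of the dermal copy. The other 4 were under 5000 UMIs in both libraries. Epidermis and lymph node shared 0 barcodes, dermis and lymph node 1. Shared barcodes carried 58 of 171 Ccl4 UMIs in epidermis and 4 of 27 in dermis, 59 of 199 Ccl5 UMIs in epidermis and 34 of 396 in dermis, and 10 of 34 Cxcl2 UMIs in epidermis and 69 of 716 in dermis. Xcl1 had 0 UMIs in them. Ratios of the 5 chemokines between tissues are therefore also given without them. The libraries also differed in sex-linked transcripts. Cells with an Xist UMI and no Y-linked UMI numbered 111 in epidermis, 723 in dermis and 7086 in the lymph node, and those with a Y-linked UMI and no Xist UMI numbered 101 in epidermis, 55 in dermis and 0 in the lymph node.

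As a set the chemokines were found in a minority of cells everywhere. At least 1 UMI of any of the 5 was present in 64 of 297 epidermal cells (21.5%), 203 of the 875 from dermis (23.2%) and 702 of the 9400 from lymph node (7.47%). Their summed level was 200 CPM in epidermis, 250 CPM in dermis and 50.5 CPM in the lymph node. Cells with 2 or more of the genes were few, 12 in epidermis, 24 in dermis and 10 in the lymph node. Which gene made up the sum differed by tissue: Ccl4 and Ccl5 in epidermis, Cxcl2 and Ccl5 in dermis, and Ccl5 in the lymph node.

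**Figure D1:**
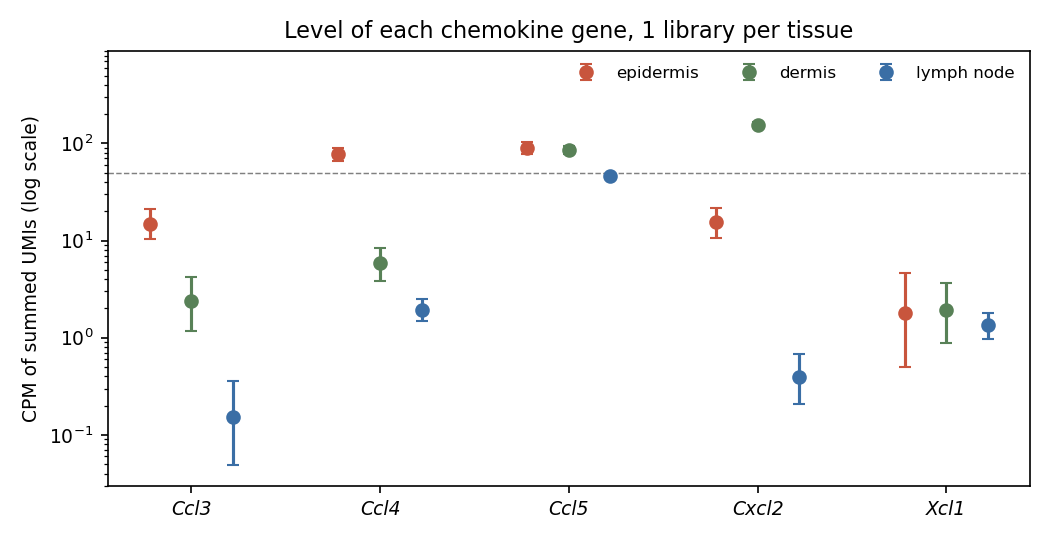
Level of each chemokine gene in CPM of summed UMIs (log axis) in the epidermal, dermal and lymph node library, with exact 95% Poisson intervals for counting error; the dashed line marks 50 CPM. Ccl4 passed 50 CPM in epidermis (77.5 CPM), Cxcl2 in dermis (155 CPM) and Ccl5 in both skin layers (90.2 and 85.5 CPM), while Xcl1 lay under 2 CPM in all 3 libraries.

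A gene was called different between 2 libraries when its CPM differed by at least 2-fold and reached 50 CPM in the higher one. Between epidermis and dermis this rule called 2.71% of 3064 genes at that level higher and 4.54% lower in epidermis. Of the chemokines 3 reached the level, and 1 of them, Ccl4, was called higher and 1, Cxcl2, lower in epidermis. Against lymph node the rule called 18.6% of 3067 genes higher and 3.42% lower in epidermis, and 26% of 3203 genes higher and 9.55% lower in dermis. There 2 chemokines reached the level in each comparison, and 1 in each was called higher, Ccl4 in epidermis and Cxcl2 in dermis, and 0 lower. Which genes reach the level depends on the higher library, which favours a call. Ccl5 reached 50 CPM only in skin and was still not called over lymph node. These counts describe the genes and are no measure of the set.

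Ccl4 (MIP-1β) was mainly an epidermal transcript. It had 171 UMIs or 77.5 CPM in epidermis (66.4 to 90.1), 27 UMIs or 5.83 CPM in dermis (3.84 to 8.48) and 64 UMIs or 1.94 CPM in the lymph node (1.498 to 2.48), and none of the intervals overlapped. The level was 13.3-fold higher in epidermis than in dermis (8.83 to 20.8) and 39.9-fold higher than in the lymph node (29.8 to 54.0). In dermis it was 2.998-fold higher than in lymph node (1.84 to 4.77) and did not reach 50 CPM. Without the shared barcodes the epidermal level was 68.0 CPM and the dermal level 5.24 CPM, a log2 ratio of 3.70 against 3.73 with them. Over lymph node it was then 5.13 in epidermis and 1.43 in dermis, against 5.32 and 1.58 with them. Epidermal cells typed by Xist held 138 CPM and those typed by Y-linked genes 64.8 CPM, levels that rested on few cells. Cells with 56 and 33 UMIs were typed by Xist, and a cell with 49 by Y-linked genes. The shares of cells with Ccl4 were 8 of 111 (7.21%, 3.16 to 13.7) and 5 of 101 (4.95%, 1.63 to 11.2), with overlapping intervals.

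Very few cells made up the epidermal Ccl4 level. All 171 UMIs came from 14 of 297 cells (4.71%), and 138 of them from 3 cells with 56, 49 and 33 UMIs. The remaining 11 cells held between 1 and 9 UMIs. Dermis had 5 such cells with 9, 9, 4, 4 and 1 UMIs, and lymph node had 17 with at most 9. Without the highest cell of each library the level was 52.2 CPM in epidermis, 3.89 in dermis and 1.67 in the lymph node, so the order of the tissues did not rest on that cell. The size of the epidermal level did rest on the 3 leading cells, which held 138 of the 171 UMIs. When every cell was thinned to 1500 UMIs, epidermal Ccl4 was left in 6 of 262 cells (2.29%, 0.845 to 4.92). Dermal Ccl4 was left in 3 of 828 (0.362%, 0.0748 to 1.06), an interval that overlapped the epidermal one. The lymph node share, 13 of 9308 (0.140%, 0.0744 to 0.239), lay under the epidermal interval and overlapped the dermal one.

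The 3 leading epidermal cells differed from each other. The cell with 56 Ccl4 UMIs was shallow, with 2816 UMIs in all. Of these 8.17% were mitochondrial, against a median of 3.98% in the kept epidermal cells. That cell also held 5 Ccl3, 31 Ctla4 and 18 Nkg7 UMIs. Ctla4 encodes an inhibitory receptor that Tregs carry and Nkg7 a membrane protein of cytotoxic granules. The cell with 49 Ccl4 UMIs held 21 Ccl3 UMIs, the most in any cell of the study, and 23 UMIs of the cytokine Il10, with 1 of Nkg7. Its barcode recurred in dermis with 601 UMIs, among them 4 of Ccl4 and 1 of Ccl3. The cell with 33 Ccl4 UMIs held 39 UMIs of Ifng, 52 of Areg, 23 of Nkg7 and 3 of Foxp3. All 14 epidermal cells had at least 2 T cell UMIs, 9 had a Foxp3 UMI, and 5 had a UMI of a CD8 or NK cell marker, against 35 of all 297 epidermal cells. Of the barcodes outside the T cell gate, 0 of 26 in epidermis had a Ccl4 UMI (interval up to 13.2%), as did 0 of 37 in dermis (up to 9.49%) and 0 of 100 from lymph node (up to 3.62%).

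Epidermal cells with a Ccl4 UMI held more T cell activation transcripts than the other epidermal cells. The 14 cells had a median of 10824 UMIs, against 6462 in the rest, so levels and not shares of cells are compared. Nkg7 stood at 599 CPM in cells with Ccl4, or 483 CPM with its highest cell left out, and at 117 CPM in cells without. Tnfrsf4, which encodes the costimulatory receptor OX40, stood at 2766 CPM with Ccl4, or 2138 CPM with its highest cell left out, and 1254 CPM without. Tnfrsf9, which encodes 4-1BB, stood at 523 CPM with Ccl4, or 369 CPM with its highest cell left out, and 227 CPM without. Ifng stood at 268 CPM with Ccl4 and 17.6 CPM without, but 39 of its 42 UMIs lay in 1 cell, and with that cell left out it stood at 20.4 CPM. The 8 genes of resting T cells summed to 688 CPM in cells with Ccl4 and 1358 CPM in cells without, and the 6 proliferation genes to 185 CPM with Ccl4, or 79.3 CPM with the highest cell left out, and 620 CPM without. The 7 type 1 genes, with Tbx21, Cxcr3 and Ifng among them, summed to 586 CPM with Ccl4 and 257 CPM without, but 1 cell held 46 of the 92 UMIs. With it left out the sum was 313 CPM, a ratio of 1.22 (0.882 to 1.65). Among these genes Il18r1 stood at 38.2 CPM with Ccl4 and 77.1 CPM without, and Cxcr3 at 115 CPM with it and 98.6 CPM without, with intervals of the ratio that spanned 1. The 14 T cell activation genes summed to 5412 CPM with Ccl4, or 4410 CPM with the highest cell left out, and 3166 CPM without. The 4 immediate early genes with the largest difference, Klf6, Jun, Junb and Fosb, were lower in cells with Ccl4. Klf6 stood at 191 CPM with Ccl4 and 505 CPM without, and Junb at 1453 CPM with it and 2012 CPM without. For Fosb the interval of the ratio spanned 1. The 8 CD8 and NK cell markers summed to 44.6 CPM with Ccl4 and 48.3 CPM without.

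In lymph node the 17 cells with Ccl4 leaned to genes of recent receptor stimulation. Nr4a1, an early target of the T cell receptor, stood at 402 CPM in them and 35.4 CPM in the other cells, and was found in 11 of the 17. Nfkbid stood at 325 CPM with Ccl4 and 32.9 CPM without, Egr2 at 128 CPM with it and 16.2 CPM without, and the cytokine Tnf at 137 CPM with it and 17.4 CPM without. The 14 T cell activation genes together were 3.58-fold higher in cells with Ccl4 (3.26 to 3.92). The 6 proliferation genes were 8.47-fold higher (6.94 to 10.2), or 5.31-fold with the highest cell left out (4.01 to 6.89), and were carried by few cells: 5 of the 17 held the 58 Stmn1 UMIs. Foxp3 UMIs were found in 2 of the 17 cells, and in 674 of all 9400.

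Ccl3 (MIP-1α), whose gene lies next to Ccl4, was lower and rarer. It had 33 UMIs or 15.0 CPM in epidermis (10.3 to 21.0), 11 UMIs or 2.38 CPM in dermis (1.19 to 4.25) and 5 UMIs or 0.152 CPM in the lymph node (0.0493 to 0.355). The order was that of Ccl4, and again no interval overlapped. The epidermal UMIs came from 6 cells with 21, 5, 4, 1, 1 and 1, the dermal UMIs from 5 cells with 5, 3, 1, 1 and 1, and the lymph node UMIs from 5 cells with 1 each. The level was 6.30-fold higher in epidermis than in dermis (3.11 to 13.8), 98.5-fold higher in epidermis than in the lymph node (38.2 to 323) and 15.6-fold higher in dermis than in lymph node (5.01 to 57.4). None of these was a call, since Ccl3 stayed under 50 CPM.

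The leading epidermal cell gave 21 of the 33 Ccl3 UMIs and had a shared barcode. Without the shared barcodes Ccl3 had 12 epidermal UMIs or 7.23 CPM and 10 dermal UMIs or 2.28 CPM, and the log2 ratio was 1.66 in place of 2.66. Over lymph node it was then 5.57 in epidermis and 3.91 in dermis, in place of 6.62 and 3.97. Among cells with a Foxp3 UMI, it had 2 UMIs or 1.91 CPM in epidermis and 4 UMIs or 1.61 CPM in dermis. Of the 6 epidermal barcodes with Ccl3, 1 had 576 UMIs, 12 of the myeloid gene Lyz2, 3 of Cxcl2 and 0 of the T cell genes.

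Ccl3 and Ccl4 lie 13228 bp apart on chromosome 11 with 0 annotated genes between them, at chr11:83647844-83649355 on the minus strand and chr11:83662584-83664683 on the plus strand (mm10). Their transcripts shared cells in skin. In epidermis 4 cells held both, 4 of the 6 with Ccl3 and of the 14 with Ccl4, and these cells carried 31 of 33 Ccl3 UMIs and 143 of 171 Ccl4 UMIs. In dermis 2 cells held both, of 5 with each gene, and 1 of these was the 601-UMI copy of the epidermal barcode with 49 Ccl4 UMIs. In lymph node 0 cells held both, of 5 with Ccl3 and 17 with Ccl4.

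**Figure D2:**
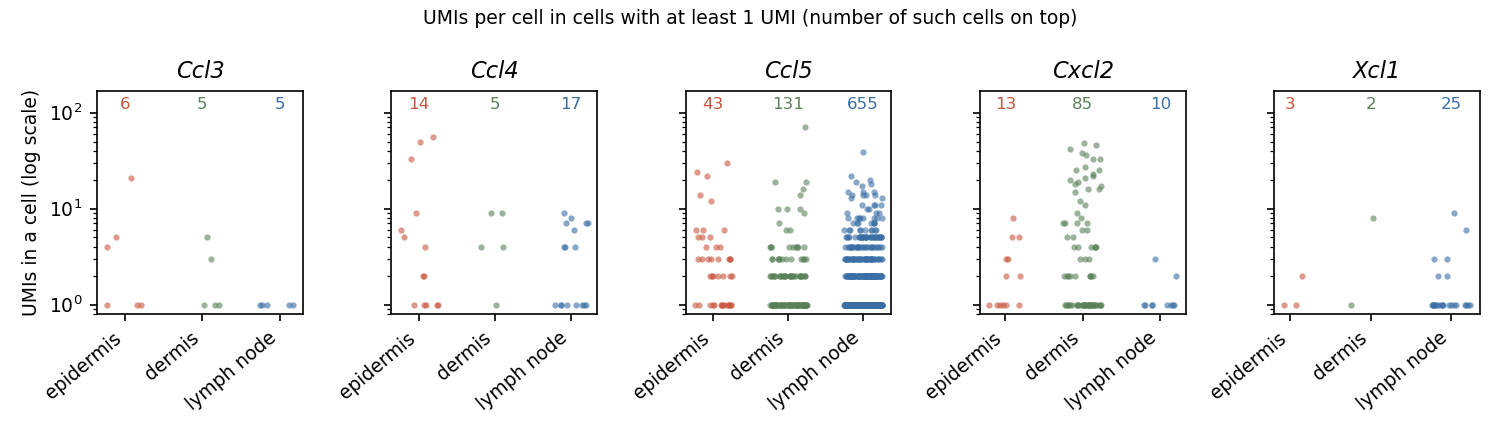
UMIs per cell (log axis) in every cell with at least 1 UMI of the gene, 1 point per cell and 1 panel per gene, with the number of such cells on top; points are spread sideways at random. Ccl4 reached 56 UMIs in an epidermal cell and Cxcl2 48 in a dermal cell, whereas no lymph node cell had over 3 Cxcl2 UMIs or over 1 Ccl3 UMI.

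Cxcl2 (MIP-2) was mainly a dermal transcript. It had 34 UMIs or 15.4 CPM in epidermis (10.7 to 21.5), 716 UMIs or 155 CPM in dermis (144 to 166) and 13 UMIs or 0.395 CPM in the lymph node (0.210 to 0.676). In epidermis the level was 10.0-fold lower than in dermis (7.11 to 14.6) and 39.0-fold higher than in lymph node (20.1 to 80.6). In dermis it was 391-fold higher than in lymph node (227 to 739). Without the shared barcodes the level was 14.5 CPM in epidermis and 148 CPM in dermis, a log2 ratio of -3.35 against -3.33 with them. Over lymph node it was then 5.19 in epidermis and 8.54 in dermis, against 5.29 and 8.61 with them. The 13 immediate early genes summed to 6501 CPM in epidermis, 14557 CPM in dermis and 977 CPM in the lymph node, an order that Cxcl2 shared, and their part in its level was not tested. The gene lies at chr5:90903871-90905938 on the plus strand (mm10).

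Dermal Cxcl2 was spread over more cells than Ccl4 was, and with high counts. It was found in 85 of 875 dermal cells (9.71%), with up to 48 UMIs in a cell, and 22 cells with 10 or more UMIs held 78.6% of the UMIs. The fewest cells that together held 50% numbered 11. In epidermis 13 cells held it, with at most 8 UMIs, and in lymph node 10 cells with at most 3. All 22 dermal cells with 10 or more UMIs passed the T cell gate, and 14 of them had a Foxp3 UMI. Thinned to 1500 UMIs, Cxcl2 was found in 0.763% of epidermal and 6.28% of dermal cells, with 0.0430% for the lymph node. Barcodes outside the T cell gate held 3 of the 34 epidermal and 5 of the 716 dermal UMIs. Free transcripts can reach any droplet, but the barcodes outside that gate were shallow called cells, so their shares cannot measure such transcripts. The share was 1 of 26 barcodes in epidermis (3.85%, 0.0973 to 19.6), at a median of 572.5 UMIs. That epidermal barcode held 576 UMIs, 3 of them of Cxcl2, 12 of Lyz2 and 0 of the T cell genes. In dermis the share was 2 of 37 (5.41%, 0.661 to 18.2), at a median of 1282 UMIs. The epidermal share of 4.38% in all cells and the dermal share of 9.71% both lie within these wide intervals.

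Dermal Cxcl2 was present both in cells that showed their Foxp3 transcript and in those that did not, at shares whose intervals overlapped. It was found in 11.2% of 411 dermal cells with a Foxp3 UMI (8.31 to 14.6) and 8.41% of 464 without (6.05 to 11.3), at 184 CPM with and 121 CPM without. In lymph node 0 of 674 cells with a Foxp3 UMI had a Cxcl2 UMI, an interval of up to 0.546%. Between the skin layers, sex-typed cells gave the same direction with unequal gaps. Cells with Xist held 34.6 CPM in epidermis and 138 CPM in dermis, a log2 ratio of -2.00. Cells with Y-linked UMIs held 1.20 CPM in epidermis, from 1 UMI, and 182 CPM in dermis, from 53 UMIs in 6 of the 55 cells, a log2 ratio of -7.24.

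Dermal cells with Cxcl2 also held more Cxcl10, Areg and activation transcripts than the other dermal cells. Cxcl10, an interferon-induced ligand of Cxcr3, stood at 313 CPM in the 85 cells and 123 CPM in the other 790, and was found in 32.9% of those with Cxcl2 and 15.4% of those without. Areg, which encodes the epidermal growth factor-like ligand amphiregulin, stood at 1263 CPM with Cxcl2 and 670 CPM without. The receptor gene Tnfrsf9 stood at 307 CPM with Cxcl2 and 188 CPM without, and the nuclear receptor gene Nr4a3 at 192 CPM with it and 125 CPM without. Median depth was 5850 UMIs in cells with Cxcl2 and 4618.5 in cells without. The heat shock genes Hspa1b and Hspa1a stood at 526 and 306 CPM in cells with Cxcl2 and at 150 and 114 CPM in cells without. Hspa1b was found in 11.8% of cells with Cxcl2 and 12.0% of cells without, and 132 of the 197 Hspa1a UMIs lay in 1 cell, without which Hspa1a stood at 102 CPM. Treg genes (5 summed) were at 5210 CPM in cells with Cxcl2 and 5196 CPM in cells without, but single genes moved both ways. Foxp3 stood at 112 CPM with Cxcl2 and 151 CPM without, a ratio of 0.740 (0.571 to 0.946). The ratio was 1.19 for Il2ra (1.03 to 1.37), 1.12 for Tnfrsf18 (1.02 to 1.22) and 0.952 for Ctla4 (0.899 to 1.01). Type 1 genes (7 summed) were at 230 CPM with Cxcl2 and 225 CPM without.

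The 13 epidermal cells with Cxcl2 were high in costimulatory receptors. Tnfrsf4 stood at 4431 CPM in them and 1214 CPM in the other epidermal cells, and Tnfrsf9, found in 10 of the 13, at 743 CPM with Cxcl2 and 224 CPM without. Resting genes summed to 337 CPM with Cxcl2 and 1357 CPM without, with Bcl2, Satb1 and S1pr1 among those at 0 UMIs in cells with Cxcl2. Macrophage and monocyte markers (8 genes) summed to 218 CPM in them and 10.5 CPM in the rest; 12 of the 14 Lyz2 UMIs came from the barcode with 0 T cell UMIs, and with the highest barcode left out the sum was 19.9 CPM. Their part in the epidermal Cxcl2 level was not tested beyond the T cell gate, which left 31 of the 34 UMIs.

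Promoter sequences are shown for Cxcl2, which of the 5 had the largest ratio of dermis over lymph node, and for the 2 other genes with an entry, Ccl3 and Xcl1. They are the 150 bases before the RefSeq transcript start, which is not the GENCODE start that the gene positions use, on the gene's strand, written 5′ to 3′, from the RefSeq promoter table of GRCm38.p6, which held 3 of the 5 genes. Capitals mark matches to a κB-type motif, the letters GGG, any 2 bases and then TTTCC, searched on both strands.
Cxcl2 promoter, chr5:90903749-90903898, plus strand: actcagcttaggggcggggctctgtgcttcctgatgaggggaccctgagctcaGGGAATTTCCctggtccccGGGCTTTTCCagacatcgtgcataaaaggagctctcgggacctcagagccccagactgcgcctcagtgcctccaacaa
Ccl3 promoter, chr11:83649379-83649528, minus strand: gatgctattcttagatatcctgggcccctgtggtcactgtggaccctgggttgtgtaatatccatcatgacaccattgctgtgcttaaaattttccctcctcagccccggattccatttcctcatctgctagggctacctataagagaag
Xcl1 promoter, chr1:164935523-164935672, minus strand: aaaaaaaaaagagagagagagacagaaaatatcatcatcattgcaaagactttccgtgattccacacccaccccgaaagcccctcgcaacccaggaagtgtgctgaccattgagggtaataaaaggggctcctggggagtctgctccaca

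The Cxcl2 window held 2 matches, which began at positions -97 and -78 counted from the start. The Ccl3 and Xcl1 windows held 0. Of 32851 promoters in the table, 0.925% held the motif in the same window. The letters TATAAA and TGANTCA, also searched on both strands, had 0 matches in the 3 windows, against 7.57% and 4.24% of all promoters. The motifs were picked after the sequences had been read, and a match describes the letters only.

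Ccl5 (RANTES) was the most widespread of the 5 and the only 1 above 2 CPM in lymph node. It had 199 UMIs or 90.2 CPM in epidermis (78.1 to 104), 396 UMIs or 85.5 CPM in dermis (77.3 to 94.4) and 1535 UMIs or 46.6 CPM in the lymph node (44.3 to 49.0). Epidermis and dermis did not differ beyond counting error, at a ratio of 1.06 (0.885 to 1.25). The level was 1.93-fold higher in epidermis than in lymph node (1.66 to 2.24) and 1.83-fold higher in dermis than in lymph node (1.64 to 2.05), both under the 2-fold limit. Without the shared barcodes the levels were 84.3 CPM in epidermis and 82.5 CPM in dermis, a log2 ratio of 0.03 against 0.08 with them. The log2 ratio over lymph node was 0.85 in epidermis and 0.82 in dermis, against 0.95 and 0.87 with them. The gene lies at chr11:83525778-83530518 on the minus strand (mm10).

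Ccl5 was found in 43 epidermal cells (14.5%, 10.7 to 19.0), 131 dermal cells (15.0%, 12.7 to 17.5) and 655 lymph node cells (6.97%, 6.46 to 7.50). Thinned to 1500 UMIs the share was 6.87% in epidermis, 7.25% in dermis and 3.80% for lymph node. Among barcodes outside the T cell gate it was found in 0 of 26 in epidermis, 0 of 37 in dermis and 2 of 100 from lymph node, an interval of 0.243% to 7.04%. Its UMIs were unevenly held: the fewest cells with 50% of them numbered 5 in epidermis, 13 in dermis and 102 in the lymph node. A dermal cell with 70 UMIs gave 17.7% of the dermal total, and without it dermal Ccl5 stood at 70.5 CPM. The epidermal cell with the most Ccl5, 30 UMIs, and the lymph node cell with the most, 39 UMIs, gave 15.1% and 2.54% of their totals.

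**Figure D3:**
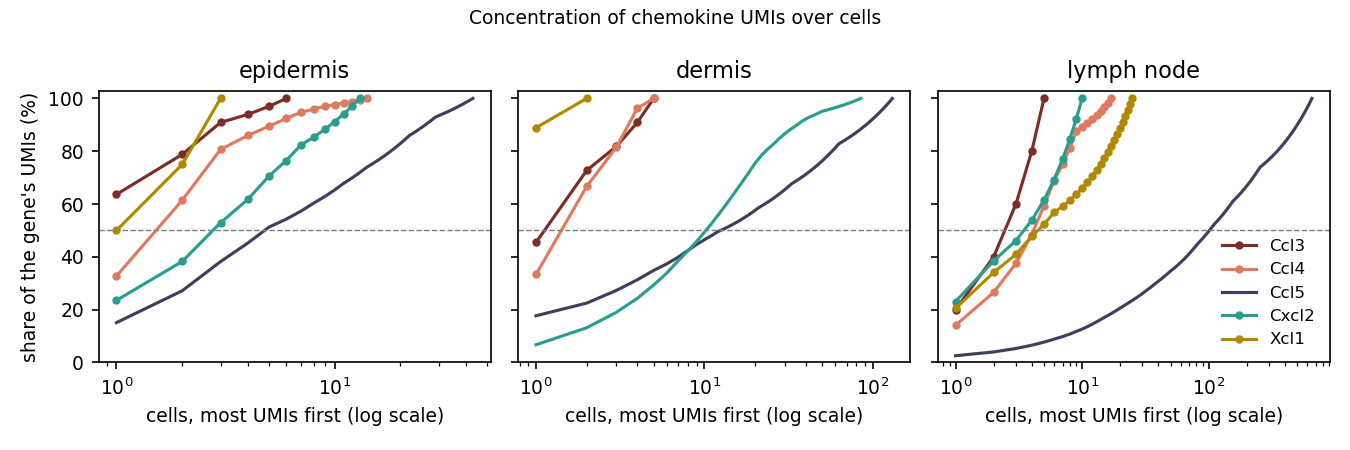
Share of each gene's UMIs (%) held by the cells with the most UMIs, against the number of cells (log axis), in epidermis, dermis and lymph node; the dashed line marks 50%. Ccl5 passed 50% with 5 epidermal, 13 dermal and 102 lymph node cells, and Cxcl2 with 11 dermal cells.

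In skin the shares of cells with Ccl5 were alike within counting error whether or not a Foxp3 UMI was found. In epidermis it was 16.1% of 118 cells with a Foxp3 UMI (9.98 to 24.0) and 13.4% of 179 without (8.78 to 19.3). In dermis it was 17.0% of 411 with (13.5 to 21.0) and 13.1% of 464 without (10.2 to 16.6). In lymph node it was 11.0% of 674 with (8.72 to 13.6) and 6.66% of 8726 without (6.14 to 7.20), where the intervals were apart. Cells with Ccl5 were also the deeper ones in lymph node, with a median of 3606 UMIs, against 2998 in cells without.

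Nkg7 was higher in cells with Ccl5 in all 3 libraries. It stood at 398 CPM in epidermal cells with Ccl5 and 86.1 CPM in those without. In dermis it stood at 173 CPM in cells with Ccl5 and 59.7 CPM in cells without, and in lymph node at 177 CPM with Ccl5 and 41.0 CPM without. With the highest cell left out it was still 330 CPM in epidermal, 161 CPM in dermal and 163 CPM in lymph node cells with Ccl5. The type 1 genes summed to 461 CPM in epidermal cells with Ccl5 and 232 CPM in those without. In dermis they summed to 322 CPM with Ccl5, or 277 CPM with the highest cell left out, and 203 CPM without, and in lymph node to 165 CPM with it and 65.6 CPM without. Cxcr3, the receptor that marks type 1 T cells, stood at 93.4 CPM in lymph node cells with Ccl5 and 28.3 CPM in those without. CD8 and NK cell markers (8 genes) summed to 95.2 CPM in epidermal cells with Ccl5 and 35.6 CPM in those without, but 33 of the 44 UMIs lay in 1 cell, and with it left out the sum was 27.0 CPM with Ccl5. In lymph node they summed to 17.7 CPM with it and 21.9 CPM without. Their part in the Nkg7 difference was not tested.

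Ifng UMIs in cells with Ccl5 were few and lay mostly in 1 cell of each skin library. In epidermis Ifng had 65 UMIs in cells with Ccl5, 39 of them in 1 cell, and stood at 141 CPM with that cell, 57.5 CPM without it and 7.46 CPM in cells lacking Ccl5. In dermis 39 of 49 UMIs lay in 1 cell, and the level was 56.0 CPM with it and 11.5 CPM without it, against 11.5 CPM in cells lacking Ccl5. Thus the dermal difference in Ifng rested on that cell. Resting genes were lower in cells with Ccl5 in epidermis, at 623 CPM with Ccl5 and 1493 CPM without, and in lymph node, at 1629 CPM with it and 2318 CPM without. In dermis they stood at 1643 CPM with Ccl5 and 1516 CPM without.

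In lymph node 3 of the 5 Treg genes were higher in cells with Ccl5. Ikzf2, which encodes the transcription factor Helios, stood at 1250 CPM in them and 696 CPM in the others, Ctla4 at 259 CPM with Ccl5 and 157 CPM without, and Tnfrsf18, which encodes GITR, at 689 CPM with it and 490 CPM without. Il2ra stood at 210 CPM with Ccl5 and 214 CPM without, a ratio of 0.979 (0.900 to 1.06), and Foxp3 at 25.8 CPM with it and 21.5 CPM without, a ratio of 1.20 (0.936 to 1.52). In dermis the 5 Treg genes summed to 5065 CPM in cells with Ccl5 and 5228 CPM in cells without. In epidermis they summed to 3569 CPM with Ccl5 and 3639 CPM without, but Il2ra was lower with Ccl5. It stood there at 281 CPM with Ccl5 and 410 CPM without, a ratio of 0.685 (0.564 to 0.827). Epidermal Foxp3 stood at 69.2 CPM with Ccl5 and 97.6 CPM without, a ratio of 0.709 (0.470 to 1.04). The intervals for Ctla4, Ikzf2 and Tnfrsf18 in epidermis spanned 1. Gzmb, which encodes granzyme B, stood at 118 CPM in lymph node cells with Ccl5 and 32.1 CPM in those without. In epidermis Gzmb stood at 331 CPM with Ccl5, or 290 CPM with its highest cell left out, and 291 CPM without. In dermis Gzmb stood at 440 CPM with Ccl5, or 350 CPM with its highest cell left out, and 410 CPM without. The interval of the ratio spanned 1 in epidermis (0.943 to 1.37) and in dermis (0.958 to 1.20).

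**Figure D4:**
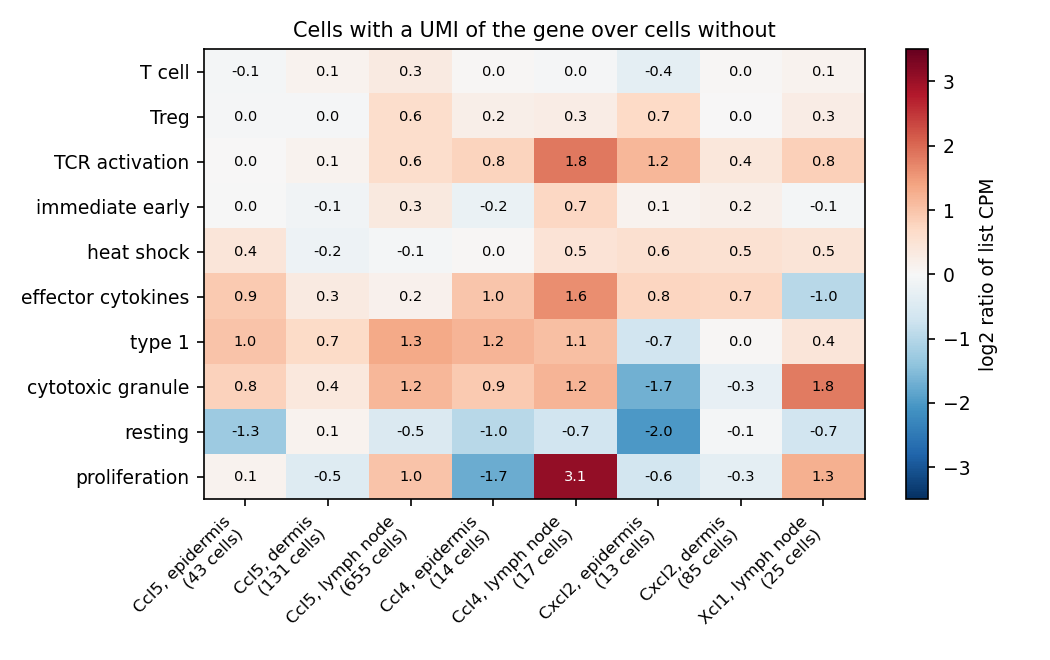
Log2 ratio of the summed CPM of 10 gene lists (rows) in cells with at least 1 UMI of a chemokine gene over cells without, for 8 pairs of gene and library (columns, with the number of cells that held the gene). Type 1 genes were higher in cells with Ccl5 in all 3 libraries, at 461 CPM (epidermis), 322 CPM (dermis) and 165 CPM (lymph node) with Ccl5, and T cell activation genes were 3.58-fold higher in lymph node cells with Ccl4.

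Xcl1 (lymphotactin) was low in every library and near the limit of detection in both skin libraries, and its levels did not differ between tissues beyond counting error. It had 4 UMIs or 1.81 CPM in epidermis (0.494 to 4.64), 9 UMIs or 1.94 CPM in dermis (0.889 to 3.69) and 44 UMIs or 1.34 CPM in the lymph node (0.972 to 1.80). The ratio of epidermis over dermis was 0.933 (0.210 to 3.34), that of epidermis over lymph node 1.36 (0.354 to 3.73) and that of dermis over lymph node 1.45 (0.624 to 3.02). Without the shared barcodes the log2 ratio of epidermis over dermis was 0.23 in place of -0.10, and over lymph node it was 0.85 in epidermis and 0.62 in dermis, in place of 0.44 and 0.54. In epidermis 3 cells held it, with 2, 1 and 1 UMIs, and in dermis 2 cells, with 8 and 1. Without the highest dermal cell the dermal level was 0.216 CPM. The gene lies at chr1:164931644-164935527 on the minus strand (mm10). The cell with 8 had 40 T cell UMIs, 14 of Nkg7 and 7 of CD8 or NK markers, with 0 of Foxp3, Il2ra and Ctla4. Without cells that held a CD8 or NK marker UMI the log2 ratio of dermis over lymph node was -2.38, in place of 0.54.

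Lymph node cells with Xcl1 were 25 of 9400 (0.266%), with at most 9 UMIs. The cell next to the top, with 6 UMIs, had 0 T cell UMIs among 1463. Nkg7 stood at 426 CPM in the 25 cells, or 304 CPM with its highest cell left out, and at 51.9 CPM in the rest. Tnfrsf9, found in 15 of the 25, stood at 566 CPM with Xcl1 and 148 CPM without, and Klf2, which encodes a transcription factor of resting T cells, at 325 CPM with it and 768 CPM without. All 25 H2-Ab1 UMIs of these cells, a gene of antigen-presenting cells, lay in 1 cell. The 8 CD8 and NK markers summed to 54.2 CPM in cells with Xcl1, or 32.6 CPM with the highest cell left out, and 21.4 CPM in cells without, and 3 of the 25 had a Foxp3 UMI.

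Across cells of a library, the genes whose levels followed a chemokine most closely were sought by Pearson correlation of log(1 + UMIs per 10000), as a description of cells that share a library and differ in depth. At r of 0.3 or more, such genes were found in epidermis, over 297 cells, and not in dermis or lymph node. For Ccl4 they were Chpt1 (r = 0.47), Lag3 (0.46), Nkg7 (0.42), Ccr8 (0.40) and Tmem184c (0.37). Lag3 encodes an inhibitory receptor of activated T cells and Ccr8 a chemokine receptor of skin Tregs. Without the highest Ccl4 cell Lag3 stood at 0.35 and Nkg7 at 0.32, while Chpt1, Ccr8 and Tmem184c were under 0.3. For Ccl5 they were Nkg7 (0.44, found in 21 of the 43 cells with Ccl5) and Ifng (0.41, in 10). For epidermal Cxcl2, Gm10260, Lmtk3, Snapc4, Spag7 and Ryk stood at 0.41 to 0.46, 4 of them with only 1 or 2 cells in common with it. Cxcl2 made up 0.521% of the UMIs of the barcode with 0 T cell UMIs, against 0.0393% in the cell with the most Cxcl2 UMIs. The part of that barcode in these correlations was not tested. Between the chemokines themselves r was 0.17 for Ccl4 and Ccl5 in epidermis and 0.05 for Ccl5 and Cxcl2 in dermis, where 19 cells held both, 14.5% of those with Ccl5 and 22.4% of those with Cxcl2.

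**Figure D5:**
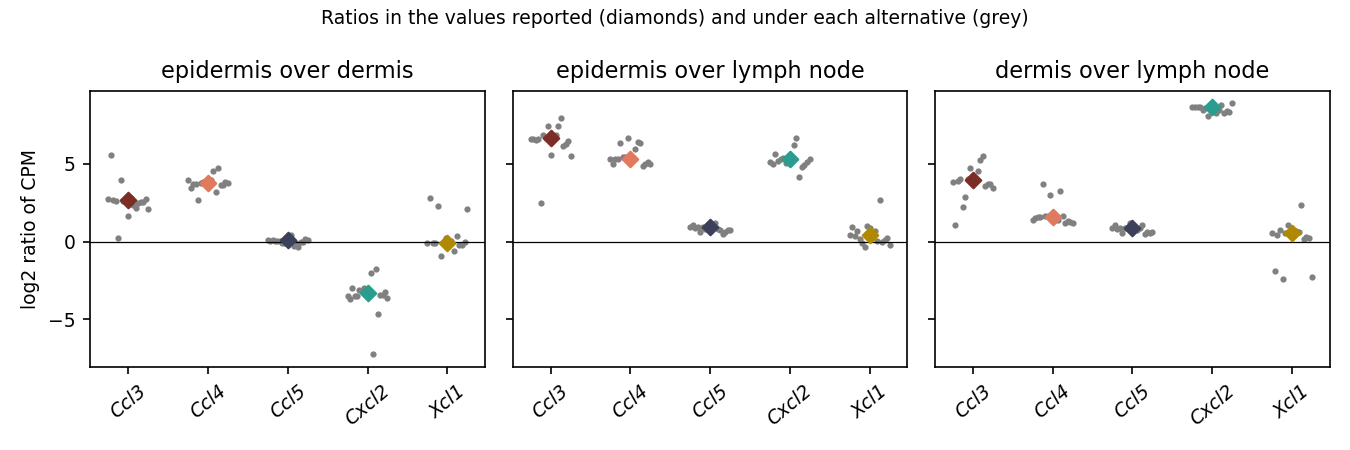
Log2 ratio of CPM between tissues for each gene as reported (diamonds) and under each other setting of cells, scaling or counting (grey points), in 3 panels for epidermis over dermis, epidermis over lymph node and dermis over lymph node. Ccl4 in epidermis over dermis lay between 2.65 and 4.70 and Cxcl2 between -7.24 and -1.79, whereas Xcl1 had points on both sides of 0 in every panel.

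Other chemokine genes were scarce in these libraries, apart from Cxcl10. Of 33 others listed, 32 were measured, 5 had 0 UMIs, and 2 reached 10 CPM in a library. Cxcl10 stood at 62.1 CPM in epidermis (52.2 to 73.4), 150 CPM in dermis (139 to 161) and 4.35 CPM in the lymph node (3.66 to 5.12), and was called lower in epidermis than in dermis and higher in each skin layer than in the lymph node. Ccl27a, known as a chemokine of keratinocytes, stood at 10.4 CPM in epidermis, 8.42 CPM in dermis, where 17 of its 39 UMIs lay in 1 cell, and 5.23 CPM in the lymph node.

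Receptors of the chemokines were measured in the same cells. Ccr3, a receptor of Ccl5, stood at 42.6 CPM in epidermis, 70.6 CPM in dermis and 5.50 CPM in the lymph node, and Ccr1 at 16.3 CPM in epidermis, 22.5 CPM in dermis and 0.972 CPM in the lymph node. Ccr3 was called higher in dermis than in lymph node and was not called in the other comparisons, and Ccr1 was under 50 CPM in all 3 libraries. Cxcr2, the receptor of Cxcl2, had 7 UMIs in epidermis, 26 in dermis, each in a cell of its own, and 2 in the lymph node. Xcr1, the receptor of Xcl1, had 1 UMI in epidermis, 6 in dermis and 2 in the lymph node, and Ackr1 had 3 UMIs in 1 dermal cell.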

How the data were processed

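The deposited values were counts, raw UMIs per gene and barcode, with no normalization by the authors. The submitters' processing notes name mm10 and Cell Ranger. Its version was 4.0.0 in the skin files, per the file headers, and for lymph node a version not given in the sources used here. Called cells alone were in the matrices. Counts were summed over the kept cells and scaled to CPM. Levels have exact Poisson intervals, ratios exact binomial-split intervals and shares exact Clopper-Pearson intervals, all at 95%. These scripts were tested on simulated data. Doublets were scored with Scrublet in scanpy 1.11.5 and left in. It marked 28 epidermal, 14 dermal and 0 lymph node cells, and so has not worked in lymph node. Positions and names came from the matrices and GENCODE vM21. Python 3.11.15, numpy 2.4.6, scipy 1.17.1 and edgeR 4.0.16 (TMM only) were used.

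The chemokines and the gene lists were chosen with earlier results of these data known. Other genes were named when a listed chemokine reached 10 CPM, a receptor had a UMI, or 1 of the 5 closest correlations reached 0.3. From a list, up to 4 genes with the largest difference at 50 CPM or more could be named. Clusters were not made, and raw reads were not analysed here. Some genes of the lists are not reported here.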

Additional observations from a re-analysis of the deposited data

Results flagged for a closer look

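Chemokine UMIs were also present in barcodes that the mitochondrial limit had removed, which the comparisons did not use. The 63 epidermal barcodes removed held 12 Cxcl2 UMIs in 6 barcodes and 8 Ccl4 UMIs in 2. Their Cxcl2 level was 107 CPM, against 15.4 CPM in the cells kept, and their Ccl4 level 71.2 CPM, against 77.5 CPM. The 202 dermal barcodes removed held 54 Cxcl2 UMIs in 14 barcodes, or 181 CPM, against 155 CPM in the cells kept. They also held 5 Ccl5 UMIs in 3 barcodes, or 16.8 CPM, against 85.5 CPM in the cells kept.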

How the results depend on the processing

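No paired analysis was possible because each tissue had 1 library. Between epidermis and dermis, Ccl4 was called higher and Cxcl2 lower in epidermis under each alternative run; with 10 CPM or no minimum Ccl3 was called too. Against lymph node, 2 chemokines in place of 1 were called higher in epidermis at a mitochondrial limit of 5%, without cells above the 95th UMI percentile, in cells with Xist and at 1.5-fold, where Ccl5 was added, and 3 at 10 CPM or no minimum, with Ccl3 and Cxcl2. In dermis over lymph node 2 were called at 5%, without the deepest cells, thinned and at 1.5-fold, again with Ccl5, and 3 with no minimum. The number of all genes called in epidermis over dermis was 448 in Y-typed cells, 743 at 10 CPM, 625 at 1.5-fold and 5395 with no minimum, in place of 222. Against lymph node it was 1912, 1274 and 7719 in epidermis, in place of 674, and 2692, 1875 and 8872 in dermis, in place of 1138, at 10 CPM, 1.5-fold and no minimum. Scaling moved the split of calls: with TMM 58 higher and 171 lower in epidermis over dermis (83 and 139 by totals), 279 and 459 in epidermis over lymph node (569 and 105), and 535 and 765 in dermis over lymph node (832 and 306). The median gene moved by TMM to a log2 ratio of -0.09, -0.34 and -0.23, from 0.01, 0.14 and 0.15. Of 253 alternative values of the chemokines' log2 ratios, 207 stayed within counting error, 46 moved and 0 called ones changed sign; 7 could not be computed, with 0 UMIs in a library. Of 30 alternative shares of cells, 17 moved. With TMM the log2 ratio of Ccl5 over lymph node was 0.47 in epidermis and 0.50 in dermis, in place of 0.95 and 0.87. Among cells with a Foxp3 UMI the log2 ratio of Ccl4 in epidermis over dermis was 2.65 in place of 3.73. The causes were not tested. The 4 alternatives on shared barcodes and sex-typed cells were chosen after seeing the data. Xcl1 rested on 4, 9 and 44 UMIs, and differences inside its intervals were not detectable at this depth.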

Other observations

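Cxcl14, picked after its values were seen, had 43 UMIs in dermis, all in 1 cell, against 2 UMIs in 1 epidermal cell and 0 in lymph node.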
